A study of Mus musculus with 9 samples.

Results

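The guanylate-binding proteins (GBPs) were examined in RNA-Seq of mouse primary renal tubular epithelial cells. The 10 genes Gbp2, Gbp3, Gbp4, Gbp5, Gbp6, Gbp7, Gbp8, Gbp9, Gbp10 and Gbp11 were taken by symbol from a table of 31167 genes, and each symbol was found once. The genes were taken by name, but the family was chosen with earlier results of these data known. Another family gene in the table, Gbp2b, is described beside them because it lies between the members Gbp3 and Gbp2.

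The cells came from C57BL/6 kidney and were sequenced in 3 groups with 3 libraries each. Sham, the negative control, was left untreated. H/R cells were kept without glucose at 1.0% oxygen for 6 h and then reoxygenated in complete medium for 18 h, which mimics ischemia and reperfusion in culture. EGR1OV cells were transfected with a plasmid that expresses the transcription factor Egr1 from a CMV promoter, using the EndoFectin Max reagent in cultures that were not yet confluent. These cells received the plasmid in place of H/R. Since Sham had no control vector, the effect of Egr1 and that of plasmid transfection cannot be told apart in these groups. Nothing says whether the 3 libraries of a group came from separate cultures or animals, so the spread between them may be technical.

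GBPs are large GTPases of the dynamin superfamily that cells make in response to interferons. They bind GTP, assemble into oligomers and gather on the membranes of vacuoles that hold parasites or bacteria, and on bacteria free in the cytosol, where they help to open these membranes and to activate inflammasomes. Their promoters are classical targets of interferon signalling, through the gamma-activated sequence (GAS) and through the interferon-stimulated response element (ISRE), on which Stat2, Irf9 and other Irf factors act.

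The members fall into 2 gene clusters. On the GRCm38 positions of the table, Gbp5, Gbp7, Gbp3 and Gbp2 lie in this order on the plus strand of chromosome 3 (chr3:142493978-142638008, 144 kb). Gbp2b lies between Gbp3 and Gbp2, ends 1422 bases before Gbp2 and starts 21637 bases after Gbp3. The other 6 members, Gbp8, Gbp9, Gbp4, Gbp10, Gbp6 and Gbp11, lie on the minus strand of chromosome 5 (chr5:105014150-105346472, 332 kb). Gbp4, Gbp9 and Gbp8 begin almost at the same base, at 105139586, 105139539 and 105139540, so that Gbp9 lies inside the annotated span of Gbp8, and Gbp4 inside that of Gbp9 but for its first bases. All members are annotated as protein coding except Gbp11, a polymorphic pseudogene.

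**Figure D1:**
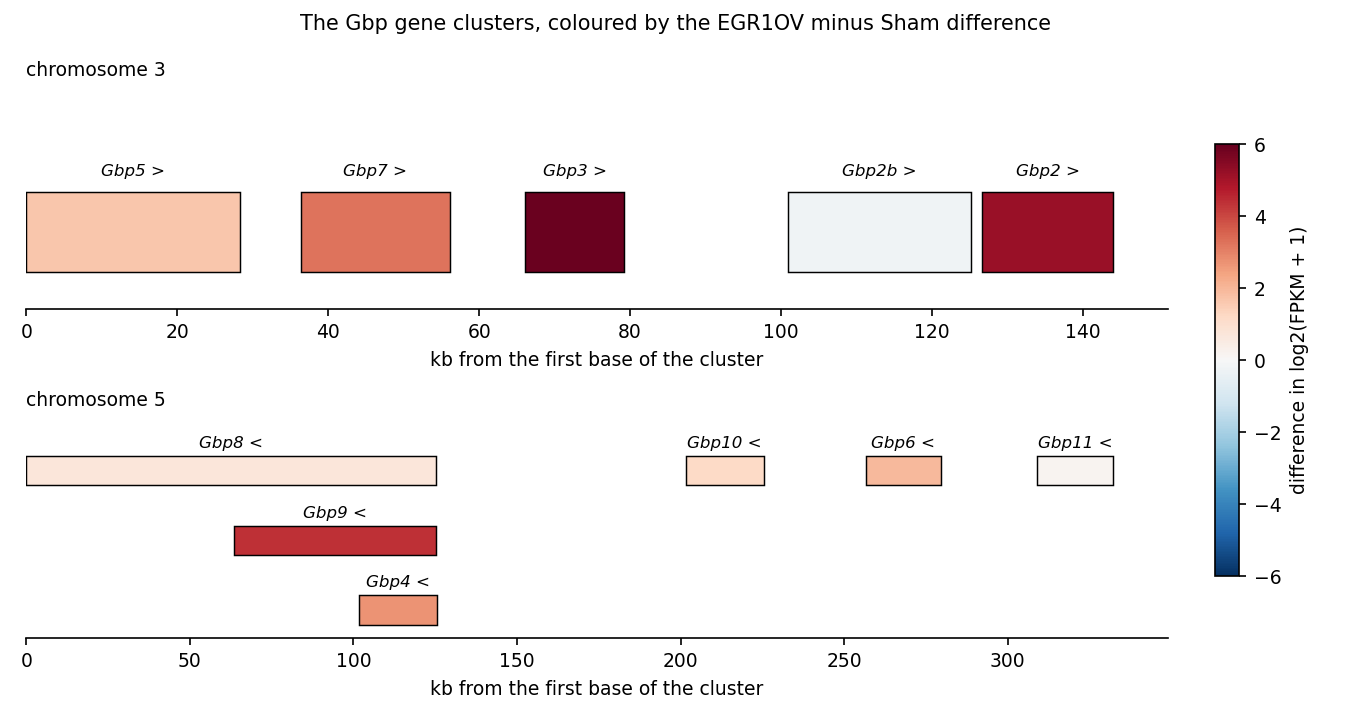
Annotated span of each Gbp gene in kb from the first base of its cluster, with > and < for the plus and minus strand. The colour is the EGR1OV minus Sham difference in log2(FPKM + 1) of the fit without a filter on low values, from 5.92 for Gbp3 to -0.24 for Gbp2b, the only gene on the blue side of the scale.

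Promoter windows from 250 bases before to 50 bases after the start were at hand in RefSeq (GRCm38.p6) for Gbp2, Gbp3, Gbp5 and Gbp7, and for Gbp2b. They are shown because the level of these neighbours differed so widely between the groups, and the capitals mark each ISRE core and each GAS element that a search of both strands found. The ISRE core was searched as GAAANNGAAA, which reads TTTCNNTTTC on the other strand, and the GAS element as TTCNNNGAA. The windows, all on the plus strand, are chr3:142620413-142620712 for Gbp2, chr3:142559794-142560093 for Gbp3, chr3:142530086-142530385 for Gbp7, chr3:142496684-142496983 for Gbp5 and chr3:142594597-142594896 for Gbp2b.
Gbp2: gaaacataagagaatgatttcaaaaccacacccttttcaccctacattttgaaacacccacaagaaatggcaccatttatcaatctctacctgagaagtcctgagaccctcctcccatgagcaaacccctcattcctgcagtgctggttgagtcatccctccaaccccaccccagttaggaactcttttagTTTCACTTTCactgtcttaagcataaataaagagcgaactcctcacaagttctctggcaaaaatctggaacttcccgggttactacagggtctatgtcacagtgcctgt
Gbp3: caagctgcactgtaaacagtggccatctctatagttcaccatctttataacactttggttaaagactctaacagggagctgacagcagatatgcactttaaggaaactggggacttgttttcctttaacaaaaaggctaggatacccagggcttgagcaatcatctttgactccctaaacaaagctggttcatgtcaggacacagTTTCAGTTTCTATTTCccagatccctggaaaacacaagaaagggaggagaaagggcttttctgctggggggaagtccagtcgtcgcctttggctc
Gbp7: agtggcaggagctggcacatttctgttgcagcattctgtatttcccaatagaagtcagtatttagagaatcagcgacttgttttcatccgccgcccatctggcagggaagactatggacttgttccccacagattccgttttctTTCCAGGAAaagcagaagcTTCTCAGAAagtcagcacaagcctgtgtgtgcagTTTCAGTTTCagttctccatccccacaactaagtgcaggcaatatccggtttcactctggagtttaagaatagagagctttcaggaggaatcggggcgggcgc
Gbp5: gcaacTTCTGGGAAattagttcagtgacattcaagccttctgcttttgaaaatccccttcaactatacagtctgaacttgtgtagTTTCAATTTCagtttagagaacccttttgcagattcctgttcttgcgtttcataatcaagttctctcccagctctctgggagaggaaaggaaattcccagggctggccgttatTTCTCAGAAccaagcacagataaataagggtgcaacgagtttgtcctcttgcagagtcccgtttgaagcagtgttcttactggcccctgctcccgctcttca
Gbp2b: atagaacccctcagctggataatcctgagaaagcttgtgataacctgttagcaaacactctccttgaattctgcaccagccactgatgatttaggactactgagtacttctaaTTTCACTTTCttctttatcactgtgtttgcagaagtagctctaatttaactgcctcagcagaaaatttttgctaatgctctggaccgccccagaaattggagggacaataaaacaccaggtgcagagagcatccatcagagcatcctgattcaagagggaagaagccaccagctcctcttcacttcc
An ISRE core was found in 4 of the 4 members with a window, against 3.44% of all 32851 promoters of the same length. Counted from the start, it began at -59 in Gbp2, at -45 and again at -39 in Gbp3, where both overlap, at -53 in Gbp7 and at -165 in Gbp5. Gbp3 has another RefSeq start with a window of its own (chr3:142560106-142560405), in which these letters were not found. The whole Gbp5 window lies inside the annotated span of Gbp5, which begins at 142493978. Its positions are counted from the RefSeq start of that window and not from that base. Gbp2b also holds an ISRE core, at -137. A GAS element was found in 2 of the 4 members, in Gbp7 at -106 and -87 and in Gbp5 at -245 and -52, against 8.30% of all promoters. The core bound by Egr1, searched as GCGNGGGCG, was found in 0 of the 4 members, against 5.55% of all promoters. At that share most sets of 4 promoters would hold none, so nothing is read from this count. Other forms of the site and sequence outside these windows were not searched. These matches describe the letters of the windows, and no binding was measured.

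Recovered depth was 16183617 to 18384022 reads per library, so a given FPKM rests on a similar number of reads in every library. Egr1 stood at 6.40 ± 0.44 FPKM (SD, n = 3) in Sham cells and rose to 7.88 ± 0.60 FPKM after H/R and to 42.6 ± 2.8 FPKM after transfection, so the transfected libraries carried more Egr1 RNA as labelled. The epithelial and tubule genes Krt8, Krt18, Epcam and Pax8 were present in all libraries, while Umod, the marker of the thick ascending limb, was at 0 throughout, and Slc34a1, the phosphate transporter of the proximal tubule, averaged 0.0209 FPKM at most in any group. A small noncoding RNA, Gm23935, stood high in Sham replicate 3 and H/R replicates 2 and 3, but took at most 0.124% of the reads of a library.

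The question asked of EGR1OV against Sham was how Egr1 overexpression changed the cells. All 10 members were higher in every EGR1OV library than in any Sham library, and Gbp2, Gbp3, Gbp9 and Gbp7 passed from below 3 FPKM to above 20 FPKM. FPKM divides the fragments of a gene by its exon length and by library depth. Levels can be compared between genes only as far as that length holds. All annotated exons count towards it, with 2516 bases in Gbp2 and 7494 in Gbp4. Differences are given on the log2(FPKM + 1) scale, where the change of a weakly expressed gene comes out too small, and the ratio of the mean FPKM is given beside them.

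Gbp3, a chromosome 3 member whose cluster supports inflammasome activation by cytosolic bacteria, had the largest fitted difference of the 8 members tested on the log2(FPKM + 1) scale. Its level was 1.25, 1.44 and 1.21 FPKM in Sham, 1.12, 1.38 and 0.863 FPKM in H/R, and 135, 138 and 141 FPKM in EGR1OV. Sham and H/R overlapped, and EGR1OV stood far above both. Against Sham the difference was 5.92 (SE 0.08, adjusted p = 3.88e-11, limma), the twelfth largest of 13985 genes tested, and the means differed 106-fold (counting interval 92.7 to 122). Voom on recovered reads of genes with at least 10 reads in all gave 7.37 (SE 0.80) for Gbp10 and 6.72 (SE 0.12) for Gbp3. Their gap is smaller than the SE of Gbp10, which had 0 reads in Sham, so their order is not settled. The interval of the Gbp6 ratio also spans that of Gbp3.

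Gbp2, a prenylated GBP that gathers on parasite vacuoles, was the most abundant member in Sham. It was 2.61, 2.58 and 2.60 FPKM in Sham, 3.29, 3.11 and 3.63 FPKM in H/R, and 134, 124 and 131 FPKM in EGR1OV. No library of one group fell within the range of another. The EGR1OV minus Sham difference was 5.18 (SE 0.05, adjusted p = 5.81e-12) and the means differed 49.9-fold.

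Gbp7, a chromosome 3 member with a role in the control of parasites, rose less. Its level was 1.27, 1.35 and 1.59 FPKM in Sham, 1.11, 1.36 and 1.27 FPKM in H/R, and 23.0, 20.7 and 22.0 FPKM in EGR1OV. The difference was 3.25 (SE 0.07, adjusted p = 4.37e-10), with means 15.6-fold apart. Gbp5, a prenylated GBP that has been tied to the NLRP3 inflammasome, was near the floor in the cells without the plasmid. It was 0.0458, 0.138 and 0.1004 FPKM in Sham, from 5 to 16 reads, 0.0745, 0.0328 and 0.0680 FPKM in H/R, and 2.61, 2.42 and 2.37 FPKM in EGR1OV. The difference was 1.66 (SE 0.07, adjusted p = 1.14e-07), and the ratio of means was 26.0 with a 95% counting interval of 18.1 to 37.9.

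On chromosome 5, Gbp9, which is recruited to parasite vacuoles, reached the highest level. It was 1.40, 1.52 and 1.09 FPKM in Sham, 1.21, 1.26 and 1.45 FPKM in H/R, and 48.6, 45.8 and 50.0 FPKM in EGR1OV. The control and H/R values interleaved, while the 3 EGR1OV values lay together at the top. The difference was 4.40 (SE 0.07, adjusted p = 1.25e-10) and the means were 36.0-fold apart.

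Gbp4 and Gbp8 share their first exon region with Gbp9 but differed from it in level. Gbp4 was 0.0893, 0.237 and 0.315 FPKM in Sham, 0.0742, 0.232 and 0.166 FPKM in H/R, and 6.99, 6.88 and 6.90 FPKM in EGR1OV. The spread of Gbp4 in Sham (coefficient of variation 53.7%) was wider than that of reads counted at random (19.2%), and in EGR1OV it was 0.839%. The Gbp4 difference was 2.71 (SE 0.08, adjusted p = 9.19e-09), with a 32.4-fold ratio of means. Gbp8 had the smallest change of the 8 members tested. It was 0.777, 0.733 and 0.739 FPKM in Sham, 0.467, 0.474 and 0.557 FPKM in H/R, and 1.87, 1.71 and 2.12 FPKM in EGR1OV, so that the 3 groups did not overlap. The difference was 0.73 (SE 0.07, adjusted p = 3.83e-05) and the ratio of means was 2.53, with a counting interval of 2.07 to 3.14.

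Gbp6 and Gbp10 are near copies, and their values are uncertain for that reason. Of the 100-base stretches in their transcripts, 64.5% for Gbp6 and 73.5% for Gbp10 also occur in another gene, mostly in each other or in Gm43302, which is not analysed here. Gm43302 covers 29.0% of the exon bases of Gbp6 and 46.3% of those of Gbp10 on the same strand. How the authors counted reads that match several genes is not given in the sources used here. In the other members this share was at most 10.01%, in Gbp7, and it was 0 in Gbp2. For 50-base stretches, the largest shares in those members were 19.2% in Gbp11, 18.1% in Gbp8 and 12.7% in Gbp7. How far shared reads entered their values was not tested.

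Gbp6 was 0.0306, 0.0385 and 0.0305 FPKM in Sham, 0.0104, 0.00914 and 0 FPKM in H/R, and 2.93, 2.85 and 3.36 FPKM in EGR1OV. The Sham values rest on 3, 4 and 3 reads and the H/R values on 1, 1 and 0, against 277 to 337 reads in EGR1OV. The difference against Sham was 1.97 (SE 0.07, adjusted p = 3.85e-08), and the ratio of means was 91.7 with a counting interval of 49.5 to 191. Gbp10 was at 0 in all 3 Sham libraries, where a count of 0 allows up to 0.0444 to 0.0471 FPKM (3 reads per library). It had 1, 0 and 1 read in H/R, and 1.35, 1.11 and 1.35 FPKM in EGR1OV, from 70 to 88 reads. Gbp10 was thus at least 27.5-fold higher in EGR1OV than the Sham floor. These intervals and floors cover counting error only, since the reads carry no molecular identifiers.

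Gbp11 stayed low in every group. It had 0, 4 and 0 reads in Sham, 1, 1 and 2 in H/R and 5, 8 and 8 in EGR1OV, or 0.112, 0.182 and 0.177 FPKM in the transfected cells. The ratio of means against Sham was 5.52, with a counting interval of 1.79 to 21.3. Gbp2b went the other way from its neighbours. It had 6, 8 and 13 reads in Sham, 5, 8 and 7 in H/R, and 0, 0 and 1 in EGR1OV, while Gbp3 and Gbp2 on either side of it had at least 7345 and 5115 reads per library. The Gbp2b mean in EGR1OV rests on 1 read, which gives a ratio to Sham of 0.0369 with a counting interval of 0.000916 to 0.227. Its fitted difference without a filter was -0.24 (SE 0.05, adjusted p = 0.00599), which is short of 1.3-fold on the log2(FPKM + 1) scale, so Gbp2b was not called. In the voom fit on recovered reads of genes with at least 10 reads in all it was called lower (-3.63, SE 0.85, adjusted p = 0.000959).

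**Figure D2:**
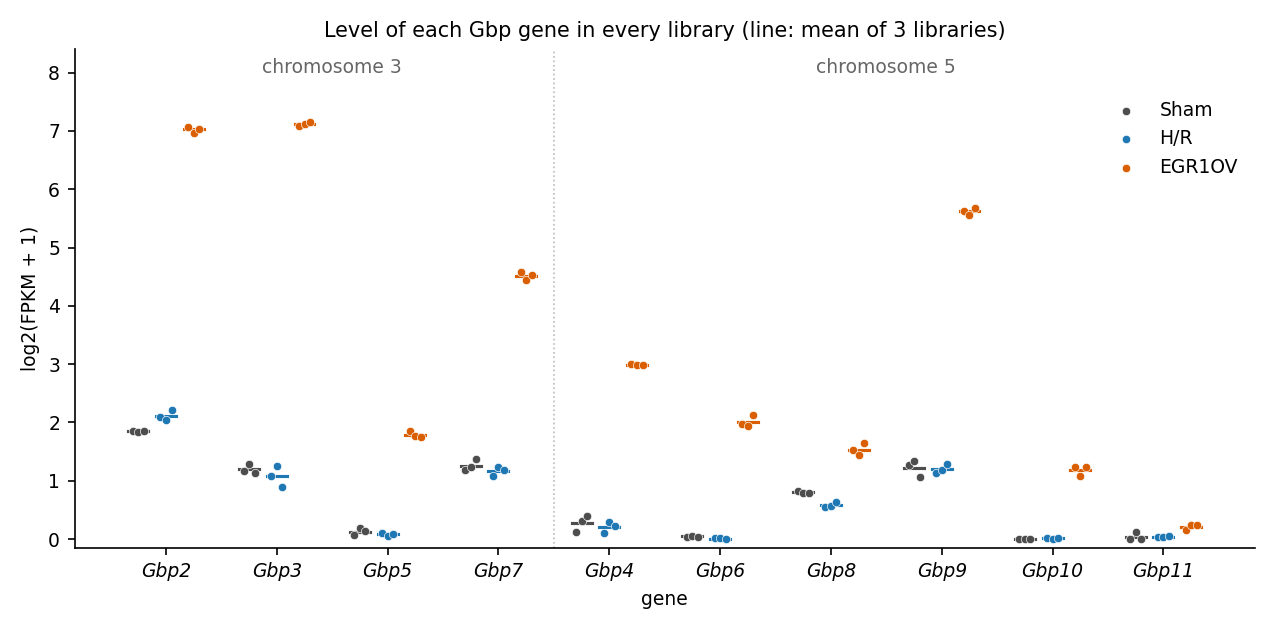
Level of each Gbp gene as log2(FPKM + 1) in each of the 9 libraries, coloured by group, with a line at the mean of 3 libraries; chromosome 3 members are left of the dotted line. EGR1OV libraries lie above Sham and H/R for all 10 genes, from about 7 for Gbp2 and Gbp3 to near 0 for Gbp11.

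Calls required an adjusted p below 0.05 together with a 1.3-fold change, and the test was limited to genes that averaged 0.5 FPKM or more across all 9 libraries. Of the 10 members, 8 passed this filter and Gbp10 and Gbp11 did not. All 8 were called higher in EGR1OV, against 9.87% of the 13985 genes tested, and none was called lower, against 6.51%. Gbp4, Gbp5 and Gbp6 passed the filter only through their EGR1OV values, so their calls follow in part from the filter. Without the filter 9 of the 10 were called higher, against 4.96% of 29404 genes, and Gbp11 was not (0.17, SE 0.04, adjusted p = 0.0148). A voom fit on genes with at least 10 recovered reads was chosen after the data were seen. It called 10 of 10 higher, against 10.3% of 20647 genes. Gbp10 and Gbp11 entered this fit only through EGR1OV, as they had 0 and 4 reads in Sham and 2 and 4 in H/R. Values of all 3 EGR1OV libraries lay above all 3 Sham libraries in 10 of 10 members, among them all 8 tested. Over the 13985 genes tested this share was 31%, and it was not counted for genes below the filter. An exact permutation test of a single gene with 3 libraries against 3 cannot go below 0.1, and it gave p = 0.1 for each member.

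Effects of hypoxia and reoxygenation on the family were read from H/R against Sham. Only Gbp2 was called, at a threshold of 1.2-fold. Its 3 H/R values (3.11 to 3.63 FPKM) lay above its 3 Sham values (2.58 to 2.61 FPKM), the difference was 0.27 (SE 0.05, adjusted p = 0.00822) and the ratio of means was 1.29, with a counting interval of 1.11 to 1.49. This call was lost without H/R replicate 3, the highest of the group, where the difference was 0.22 and fell short of 1.2-fold (adjusted p = 0.0202), and in the voom fit on genes with at least 10 reads (adjusted p = 0.0659). It stood at 1 of 8 members tested, against 1.6% of all genes called higher.

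By limma, 0 members were called lower in H/R, against 2.65% of all genes, and voom on genes with at least 10 reads also called 0. At an unadjusted p below 0.05, 1 member was lower. Gbp8 was lower in each H/R library (0.467 to 0.557 FPKM) than in any Sham library (0.733 to 0.777 FPKM), with a difference of -0.22 (SE 0.07, adjusted p = 0.0811) that did not pass the threshold. With a pseudocount of 0.1 in place of 1, the Gbp8 difference was -0.51 and passed it (adjusted p = 0.0444). The other 6 members tested differed by -0.12 to -0.02, with adjusted p of 0.366 to 0.921. On this scale the weakly expressed Gbp6 differed by -0.04, while voom on the recovered reads of genes that passed the filter gave -1.93 (adjusted p = 0.0783). On genes with at least 10 reads, voom also gave -1.93 for Gbp6, with adjusted p = 0.168. The ratios of mean FPKM between H/R and Sham, with counting intervals, were 0.196 (0.0205 to 0.904) for Gbp6, 0.616 (0.326 to 1.09) for Gbp5, 0.666 (0.504 to 0.879) for Gbp8 and 0.735 (0.530 to 1.05) for Gbp4. They were 0.863 (0.708 to 1.06) for Gbp3, 0.888 (0.772 to 1.03) for Gbp7 and 0.978 (0.840 to 1.14) for Gbp9. The groups did not overlap for Gbp2, Gbp6 and Gbp8, which is 3 of the 8 members tested, and 33.6% of all genes tested had groups that did not overlap in either direction.

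EGR1OV and H/R were compared directly, since both comparisons above share the Sham libraries. All 8 members tested were called higher in EGR1OV, against 11.9% of all genes. Of these calls, 3 (Gbp4, Gbp5 and Gbp6) were of genes that passed the filter only through EGR1OV. The differences ran from 6.04 (SE 0.08, adjusted p = 3.94e-11) for Gbp3 and 4.91 (SE 0.05, adjusted p = 9.29e-12) for Gbp2 down to 0.95 (SE 0.07, adjusted p = 5.48e-06) for Gbp8. For Gbp2 the ratio of means was 38.7, and for Gbp8 it was 3.81.

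**Figure D3:**
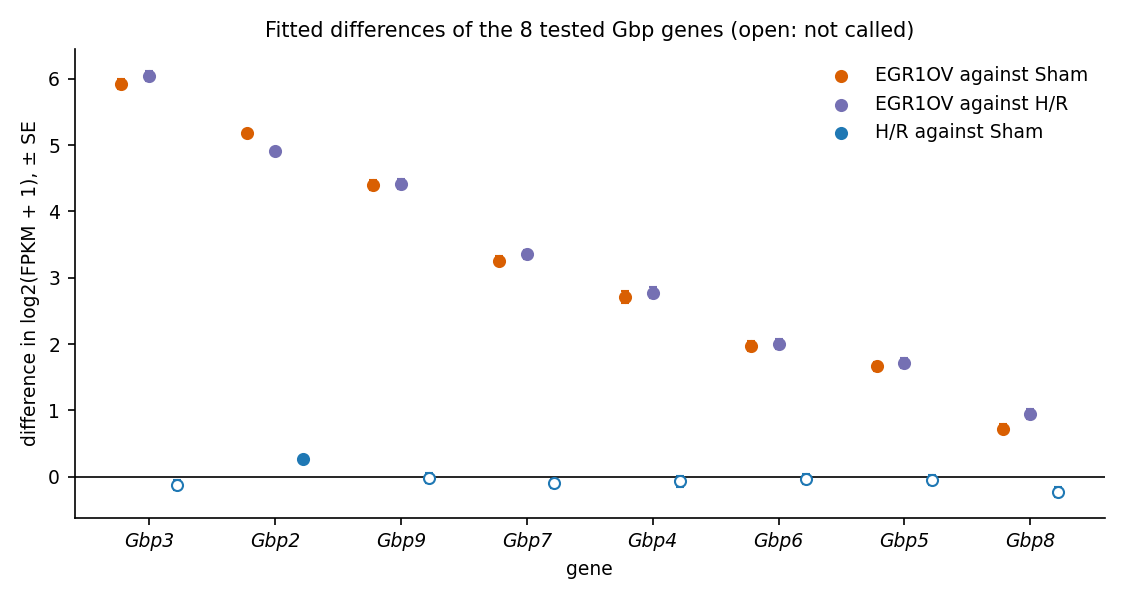
Fitted differences in log2(FPKM + 1) with their SE for the 8 members tested, in the 3 comparisons; filled points passed the test and its fold threshold and open points did not. Both EGR1OV comparisons run from 5.92 and 6.04 for Gbp3 to 0.73 and 0.95 for Gbp8, while the H/R against Sham points lie between -0.22 and 0.27.

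The family as a whole summed to 7.75 ± 0.33 FPKM (SD, n = 3) in Sham cells. The sum was 7.78 ± 0.35 FPKM after H/R and 353 ± 8.3 FPKM after transfection with the plasmid. The order of the members also changed. In Sham, Gbp2 stood first, and Gbp7, Gbp9 and Gbp3 followed at 1.40, 1.34 and 1.298 FPKM with ranges that overlapped. Gbp8 came next at 0.75 FPKM and the rest were at 0.214 FPKM or below. In EGR1OV, Gbp3 and Gbp2 stood together at 138 and 129 FPKM, with ranges of 135 to 141 and 124 to 134 FPKM that did not overlap. Gbp9, Gbp7, Gbp4, Gbp6, Gbp5, Gbp8 and Gbp10 followed in this order with no overlap between neighbours, from 48.1 down to 1.27 FPKM. The places of Gbp6 and Gbp10 are uncertain because of their shared sequence. Gbp8 had thus passed from the fifth to the eighth place, below Gbp4, Gbp6 and Gbp5, all of which it exceeded in Sham.

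Within each library the ratio of Gbp3 to Gbp2 showed the same shift. It was 0.478, 0.559 and 0.464 in Sham, 0.339, 0.444 and 0.238 in H/R, and 1.01, 1.11 and 1.08 in EGR1OV, so the ranges of the 3 groups did not overlap. Together both genes made up 49.5 to 51.7% of the family's summed FPKM in Sham, 55.8 to 59.6% in H/R and 75.5 to 76.3% in EGR1OV. The share of Gbp8 fell from 9.03 to 10.4% in Sham to 0.496 to 0.590% in EGR1OV. The chromosome 3 members together held 67.8 to 71.6% in Sham, 72.3 to 75.7% in H/R and 82.2 to 83.0% in EGR1OV.

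**Figure D4:**
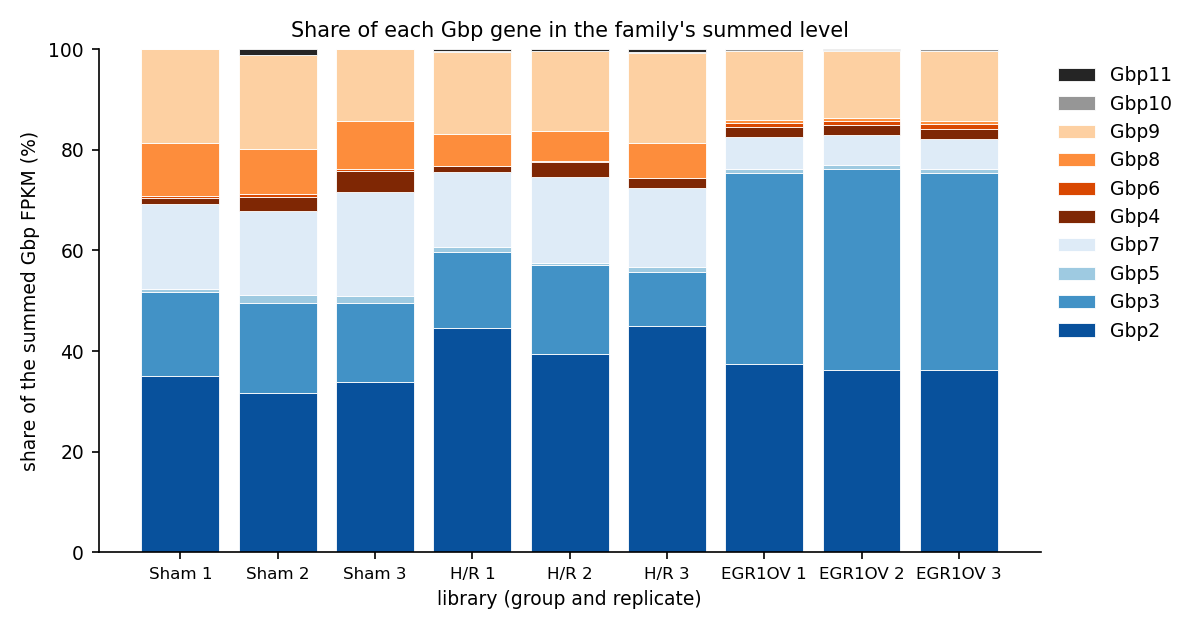
Share of each member in the summed FPKM of the 10 Gbp genes, in percent, for each of the 9 libraries, with chromosome 3 members in blue at the bottom and chromosome 5 members in orange, brown, grey and black above. Gbp2 and Gbp3 together take 49.5 to 59.6% of the total without the plasmid and 75.5 to 76.3% with it.

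The protein-coding genes next to the clusters had lower means in EGR1OV than in Sham. Beside the chromosome 3 cluster, Pdlim5 was 86.6 ± 1.2 FPKM in Sham and 52.5 ± 1.7 in EGR1OV, and Kyat3 was 0.460 ± 0.043 and 0.439 ± 0.042, a difference within the spread of the libraries. Beside the chromosome 5 cluster, Lrrc8b was 14.0 FPKM in Sham and 10.4 in EGR1OV, and Abcg3 was 1.00 ± 0.28 and 0.0227 ± 0.010. The small RNA gene Gm24097 was 0.368 FPKM in Sham and 0 in EGR1OV, and the long noncoding RNA gene Gm32051, next to Lrrc8b, was 0.0161, 0 and 0.0480 FPKM in Sham, H/R and EGR1OV.

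Genes of the interferon pathway upstream of the GBPs were taken from lists by their role. Of 10 interferon genes, 8 were in the table and only Ifnb1, which encodes interferon beta, passed the filter. Ifnb1 was at 0 in all Sham and H/R libraries and 2.66 ± 0.65 FPKM in EGR1OV (difference 1.85, SE 0.12, adjusted p = 2.35e-06). Ifnb1 passed the filter only through EGR1OV. Ifna4 was below the filter, at 0 in all Sham and H/R libraries and 0.536 ± 0.18 FPKM in EGR1OV, and the voom fit called both genes higher. Both entered that fit only through their EGR1OV reads. Ifng, the gene for interferon gamma, was not analysed here. Of 9 receptor chains and Jak kinases, 4 were called higher in EGR1OV, against 9.87% of all genes tested, and none lower, against 6.51%. Tyk2 (4.70 to 7.80 FPKM), Ifnlr1 (2.60 to 4.31 FPKM) and Jak2 (11.5 to 16.9 FPKM) changed most among the calls. At an unadjusted limma p below 0.05, 6 were higher and 2 lower. The lower genes were Ifngr1 (50.4 to 38.9 FPKM, difference -0.37, SE 0.03), just short of 1.3-fold, and Ifnar1 (19.1 to 17.7 FPKM, -0.10, SE 0.03). Of 6 Stat and Irf factors, 5 were tested and 5 were called higher, against 9.87% of all genes tested. Irf7, which drives interferon transcription, went from 0.823 ± 0.19 FPKM in Sham to 223 ± 5.1 in EGR1OV (difference 6.95, SE 0.08, adjusted p = 1.38e-11). Stat2 and Irf9, which carry the interferon signal to the ISRE, had differences of 4.08 (SE 0.09) and 2.17 (SE 0.09). Irf8, a factor of myeloid cells, was below the filter at 0.613 ± 0.10 FPKM in Sham and 0.151 ± 0.025 in EGR1OV.

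The immunity-related GTPases (IRGs), which load onto the same parasite vacuoles as the GBPs, were called higher in EGR1OV in 8 of 8 cases, against 9.87% of all genes tested, with a median difference of 4.35 beside 2.98 for the 8 tested Gbp members and 0.02 for all genes. Of these calls, 4 (Iigp1, Tgtp1, Tgtp2 and Gm12250) were of genes that passed the filter on low values only through their EGR1OV libraries. Iigp1 rose from 0.0508 ± 0.010 to 82.3 ± 5.6 FPKM, Tgtp1 from 0.147 ± 0.070 to 87.1 ± 4.4 and Tgtp2 from 0.182 ± 0.074 to 46.6 ± 1.2, although Tgtp1 and Tgtp2 are near copies and may split reads. In H/R, 0 of the 8 were called higher by limma or by voom, where limma called 1.6% of all genes higher. By limma 1 of the 8 was called lower, against 2.65% of all genes. It was Gm12250 (Irgb10), at 0.106 FPKM against 0.373 in Sham. At an unadjusted limma p below 0.05, 1 was higher and 3 were lower.

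Inflammasome genes downstream of GBPs were called higher in 4 of the 5 tested, against 9.87% of all genes, and lower in none. Of the 4, Il1b and Casp4 averaged under 0.5 FPKM over the Sham and H/R libraries and passed the filter only through EGR1OV. They were Il1b (0.390 ± 0.24 to 8.48 ± 1.2 FPKM), which encodes interleukin 1 beta, Casp4 (0.458 ± 0.12 to 5.63 ± 0.82 FPKM), the mouse caspase-11 that senses lipopolysaccharide, Gsdmd (1.56 ± 0.091 to 5.95 ± 0.82 FPKM), the pore-forming gasdermin D, and Il18. Casp1 was 0.663 ± 0.37 FPKM in Sham and 0.549 ± 0.24 in EGR1OV and was not called (-0.09, SE 0.16, adjusted p = 0.687). The sensors and adaptor Nlrp3, Aim2 and Pycard were below the filter, at 0.344 FPKM or less in Sham and at 0.213 FPKM or less in EGR1OV.

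Genes for the machinery that GBPs use were also counted. Of 8 Atg8 conjugation genes, which are needed to place GBPs on vacuoles, 0 were called in either direction by limma and 0 by voom on genes with at least 10 reads, with a median difference of 0.05. Over all genes tested, limma called 9.87% higher and 6.51% lower. At these shares a list of 8 may well hold no call, so nothing is read from this count. At an unadjusted p below 0.05 alone, 3 were higher and 2 lower. Of 6 prenylation genes, which attach the lipid anchor of Gbp2 and Gbp5, 0 were called higher and 1 lower, against the same shares. It was Fnta (19.7 ± 0.88 to 14.6 ± 0.51 FPKM). Of 12 other dynamin superfamily GTPases, 2 were called higher and 1 lower, against 9.87% and 6.51% of all genes tested. Both that rose are the interferon-induced antiviral Mx proteins, Mx2 (0.0766 ± 0.037 to 26.2 ± 0.71 FPKM) and Mx1 (0.0379 ± 0.018 to 9.80 ± 0.23 FPKM), and both passed the filter only through EGR1OV. The 1 that fell was the mitochondrial fusion gene Mfn2 (29.4 ± 0.17 to 22.3 ± 0.37 FPKM).

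**Figure D5:**
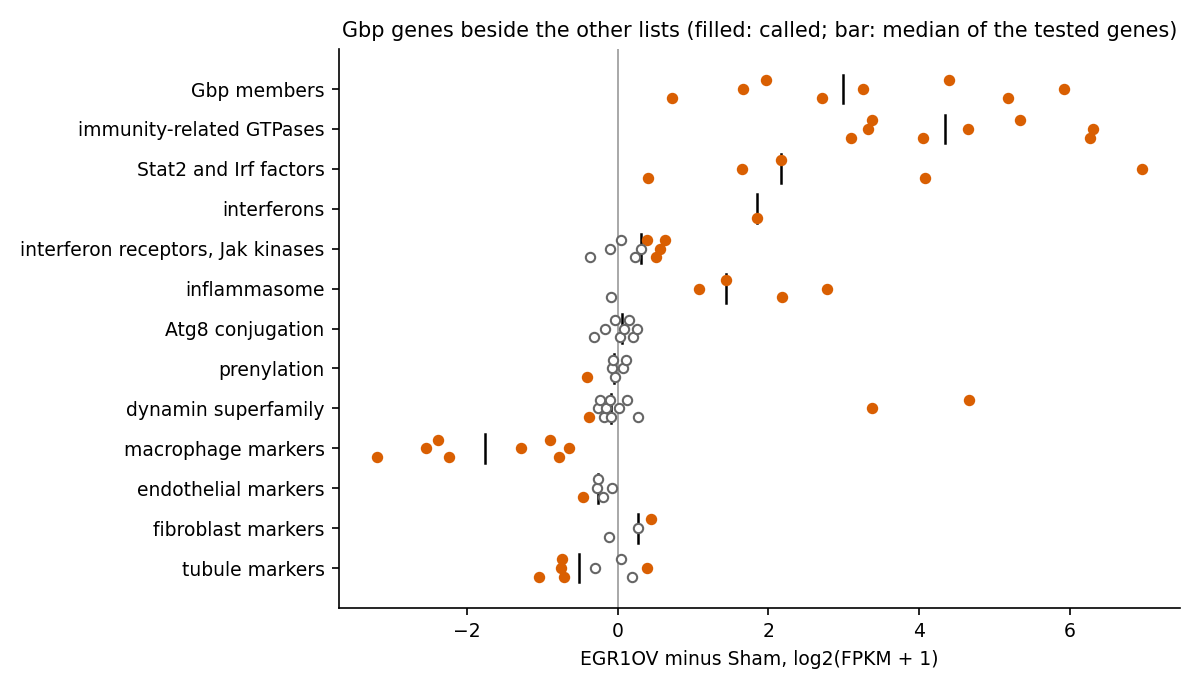
EGR1OV minus Sham difference in log2(FPKM + 1) of each tested gene in the Gbp family and in 12 other lists; filled points were called, open points were not, and the bar is the median of the tested genes of the list. The Gbp members (median 2.98) and the IRGs (median 4.35) lie wholly to the right of 0, and the macrophage markers (median -1.76) wholly to the left.

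GBPs are also made by macrophages, so marker lists of other cell types were read beside the family. The 9 macrophage markers summed to 141 to 145 FPKM in Sham libraries, to 117 to 124 FPKM after H/R and to 22.1 to 26.6 FPKM in EGR1OV libraries. Of those tested, 8 of 8 were called lower in EGR1OV, against 6.51% of all genes tested. All 9 were lower in every EGR1OV library than in any Sham library, a share that was not counted over all genes. Lyz2 fell from 57.7 ± 1.6 to 5.46 ± 0.59 FPKM, C1qa from 31.1 ± 1.2 to 4.50 ± 0.28 and C1qc from 14.0 ± 0.71 to 1.91 ± 0.56. In bulk RNA, fewer cells of a type and less RNA per cell cannot be told apart. Lymphocyte markers summed to at most 0.301 FPKM in any library, over the 4 of 8 that were in the table. Endothelial markers summed to 9.74 to 10.3 FPKM in Sham and 7.04 to 7.61 in EGR1OV, and fibroblast markers to 31.8 to 33.4 and 36.8 to 41.8 FPKM. Of 5 endothelial markers tested, 1 was called lower, Pecam1 (1.76 ± 0.13 to 1.01 ± 0.092 FPKM), and 0 higher. Of 3 fibroblast markers tested, 1 was called higher, Col1a2 (7.22 ± 0.32 to 10.2 ± 0.37 FPKM), and 0 lower. Over all genes tested, 6.51% were called lower and 9.87% higher. With so few markers tested, nothing is read from these counts. Tubule markers summed to 1828 to 1866 FPKM in Sham and 1151 to 1258 in EGR1OV. Of the 8 tested, 4 were called lower, led by Lrp2 (3.60 ± 0.082 to 1.22 ± 0.048 FPKM), and 1 higher, Epcam, against 6.51% and 9.87% of all genes tested. The part of these shifts in the Gbp values was not tested.

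The 5 genes outside the family whose level over the 9 libraries was most like the mean profile of the 8 tested members were Ddx60, Irgm1, Zbp1, Ifit2 and F830016B08Rik. Pearson's r with that profile was 0.9996 for Ddx60 and at least 0.9993 for all 5, on log2(FPKM + 1) standardised per gene. The profile is high in 3 libraries and low in 6, and 290 of 8068 candidate genes had r above 0.99. Zbp1, a sensor of nucleic acids that can trigger cell death, had means of 0.180, 0.0911 and 25.7 FPKM in Sham, H/R and EGR1OV. Ifit2, an interferon-induced gene that acts on translation, was 6.61, 6.09 and 192 FPKM, and Irgm1, the IRG that protects self membranes, was 28.5, 26.6 and 249 FPKM.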

How the data were processed

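The authors deposited a single FPKM table (fragment counts divided by exon length and by library depth) that holds a column for each of the 9 libraries and no pooling. The submitters' processing notes name Bowtie2 2.2.3, HISAT2 2.1.0, TopHat2 and mm9, with no role given, yet 94.6% of gene positions equal those of GENCODE M21 (GRCm38), so positions are given as in the table. The counter and the annotation are not given in the sources used here.

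Whole reads were recovered from FPKM, exon length and the step between low values. Of 162948 values of 1 to 1000 reads, 94.0% were whole within 0.02 reads, and 99 of 99 family values were. Counting intervals are 95% exact binomial intervals of the reads, and the floor was 3 reads per library.

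Levels were tested as log2(FPKM + 1) with limma 3.58.1 (R 4.3.3; lmFit, eBayes with trend, all 9 libraries, two-sided, Benjamini-Hochberg over the 13985 genes averaging 0.5 FPKM or more). The thresholds of 1.3-fold and 1.2-fold against Sham are the study's. Every adjusted p is from limma. The scripts were tested on simulated data. Alternatives were another pseudocount, filters, scalings, a replicate block, other fits and each library left out. The members and lists were chosen with earlier results of these data known. All 10 members and Egr1 are named, up to 3 called genes per list by size of change, and genes at 0 or under the filter on which a count turns. A comparison of the Gbp proteins was not done, and 1 gene of the lists is not reported here.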

Additional observations from a re-analysis of the deposited data

Results flagged for a closer look

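Gbp6 and Gbp8 were flagged for the order of their libraries in the 3 groups. Every EGR1OV library lay above, and every H/R library below, all Sham libraries for both genes. H/R and Sham did not overlap, in either direction, in 33.6% of all genes tested. The direct difference between EGR1OV and H/R on the log2(FPKM + 1) scale was 2.01 (SE 0.07, adjusted p = 3.23e-08, limma) for Gbp6 and 0.95 (SE 0.07, adjusted p = 5.48e-06) for Gbp8. Since the flag used these same values, a direct difference above 0 was fixed in advance and is no separate support. All 8 members tested were called higher in that comparison, against 11.9% of all genes. Gbp4, Gbp5 and Gbp6 passed the filter only through EGR1OV. Neither gene was called in H/R against Sham, and the H/R values of Gbp6 rest on 1, 1 and 0 reads.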

How the results depend on the processing

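The members called in EGR1OV against Sham and against H/R stayed at 8 in the alternatives run, except for 7 at a 2-fold threshold, for 4 under a mean of at least 5 FPKM, where only 4 members were tested, and for fits that tested more members (9 without a filter and 10 by voom on genes with at least 10 recovered reads). The range with each library left out was 8 to 8. The single called member in H/R against Sham became 2 with a pseudocount of 0.1, 0 at a 2-fold threshold and 0 by voom on genes with at least 10 reads, and the range with each library left out was 0 to 1, with 0 without H/R replicate 3. Directions turned only in H/R against Sham, for members that were not called: Gbp6 was 0.0225 under quantile normalization, and Gbp9 was 0.00794 with median-ratio scaling, 0.0184 with quantile normalization and from -0.0937 to 0.0413 with each library left out (above 0 without Sham replicate 1, Sham replicate 2 or H/R replicate 1). The cause was not tested. Same-numbered libraries did not deviate together (0 of 9 correlations over 0.1, from -0.02 to 0.06), and with the replicate block the counts were 8, 1 and 8. Members at a few reads, Gbp10 and Gbp11 foremost, and Gbp5 and Gbp6 outside EGR1OV, are limited by depth.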
